A study of Homo sapiens with 22 samples.

Results

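The stretch of chromosome 17 that runs from RARA to IGFBP4 was examined for binding of the estrogen receptor alpha (ESR1) in endometrial cancer cells. It was taken as chr17:38420000-38660000 in hg19, a length of 240 kb, and every peak of the 20 deposited peak lists that overlapped it was counted. The window held 297 of 356467 peaks. Overlapping peaks of all libraries, with 1 shared bp as the minimum, were joined, which gave 51 regions in the window of 93612 in all. The regions are named R01 to R51 in order of position, and a region is called bound in a library when that library's list holds a peak in it.

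RARA encodes the retinoic acid receptor alpha, a nuclear receptor that pairs with a retinoid X receptor and switches genes in response to retinoic acid. IGFBP4 encodes a secreted protein that binds insulin-like growth factors and limits their access to the receptor IGF1R. Both genes are known as estrogen-induced in breast cancer cells. ESR1 itself is a nuclear receptor that binds DNA as a dimer, typically at the estrogen response element, when estradiol (E2) is present. D538G is a substitution in its ligand-binding domain that recurs in tumours and is known for activity without hormone.

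All libraries came from Ishikawa, an endometrial adenocarcinoma line, as clones in which ESR1 carried a FLAG tag and was precipitated with an antibody to that tag. Cells had at least 5 days in hormone-deprived medium and then 1 h with 10 nM E2 or with the solvent, DMSO at 0.1%. The 4 groups were wild-type ESR1 with DMSO (4 libraries), wild-type with E2 (4), D538G with DMSO (6) and D538G with E2 (6). Each genotype was represented by few clones, 2 wild-type and 3 D538G, with 2 replicates of each clone and treatment, so replicates of a clone share its genome and history and p-values over libraries treat them as independent. The series also had 2 input libraries, 1 per genotype, which were not analysed here, so no background was measured in the window.

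In order along the chromosome, the gene table of another assembly (GRCh38.p14) gives WIPF2, an actin regulator, CDC6, which licenses DNA replication, then RARA with its antisense RNA RARA-AS1, GJD3, a gap junction protein, TOP2A, a DNA topoisomerase, IGFBP4 and TNS4, a tensin. All 8 symbols were matched, and 2 protein-coding genes lie between RARA and IGFBP4 in that table. Its coordinates do not belong to the build of the lists, so no peak was assigned to a gene, an exon, an intron or a promoter, and the text speaks only of the RARA end (lower coordinates) and the IGFBP4 end (higher coordinates) of the window. These names are labels of position and do not place a peak at either gene. In that order TOP2A precedes IGFBP4 and TNS4 follows it.

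The RefSeq promoter windows of both genes are shown here for their estrogen response element letters, since these genes name the locus. Each runs from 250 bases before to 50 bases after a transcription start, on the plus strand of GRCh38.p14: chr17:40308930-40309229 for the first of 3 RARA starts and chr17:40443200-40443499 for the single IGFBP4 start. Capitals mark the 5-base core GGTCA of the element, or TGACC where it lies on the other strand.
RARA: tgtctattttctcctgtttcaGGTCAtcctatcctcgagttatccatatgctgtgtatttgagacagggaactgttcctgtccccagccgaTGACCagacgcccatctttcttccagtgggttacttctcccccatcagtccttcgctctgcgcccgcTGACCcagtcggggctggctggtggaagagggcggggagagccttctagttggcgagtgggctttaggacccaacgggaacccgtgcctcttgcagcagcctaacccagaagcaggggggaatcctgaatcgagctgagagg
IGFBP4: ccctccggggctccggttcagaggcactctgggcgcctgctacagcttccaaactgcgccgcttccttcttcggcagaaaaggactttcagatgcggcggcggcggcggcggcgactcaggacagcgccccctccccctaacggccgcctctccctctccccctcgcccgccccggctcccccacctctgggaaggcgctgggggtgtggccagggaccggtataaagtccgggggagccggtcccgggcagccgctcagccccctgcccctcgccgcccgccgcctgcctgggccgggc
The first RARA window held 3 such cores, 1 forward and 2 reverse. The windows of the other RARA starts and of IGFBP4 held 0. The palindrome GGTCANNNTGACC, in which GGTCA and TGACC stand 3 bases apart, occurred in none of these 4 windows. Of 35116 promoter windows of this length in the table, 13125 (37.4%) held a core, 670 (1.91%) held 3 or more, and 20 (0.057%) held the palindrome. Whether a peak of the lists covers these bases could not be read across assemblies.

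Before the results, 3 features of the lists have to be stated. The lists differed in length from 45 to 54903 peaks, and read depth is not given in the sources used here. The wild-type DMSO lists held 51 and 45 peaks in replicate 1 of clones 1 and 2, and 29118 and 1080 in replicate 2, so 1 list stands apart from the other 3. The list labelled D538G clone 2, E2, replicate 1 carries peak names that hold "Ctl", as 1 of 10 E2 lists, while all 10 DMSO lists have names that hold Ctl or DMSO. Each tested D538G comparison is therefore given with that list and its DMSO partner and without them. In 4 D538G lists the names also hold "Input", and the role of an input in calling the other lists is not known.

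Peaks were gathered in recurrent places and not spread evenly (the map of peaks by library). Of the 51 regions, 19 (37.3%) were bound in 1 library, against 43.8% of all regions, and 15 of those 19 (78.9%) came from a D538G DMSO list, against 65.0% of such regions in the whole genome. All 15 belonged to the longest lists of the series, 12 to clone 1 replicate 2 (50382 peaks) and 3 to clone 2 replicate 2 (54903 peaks). The former list held 63.2% of the 19, against 24.9% of such regions in the whole genome. The latter, longer list held 15.8%, against 39.9%. At the other extreme, 11 regions (21.6%) were bound in 9 or more libraries, against 9.43% of all regions. The widest stretch with no peak in any library was 46961 bp long, chr17:38526589-38573549. It separated 27 regions at the RARA end from 24 at the IGFBP4 end. Regions of the window had a median width of 477 bp, against 382 bp over all regions. Windows of the same length placed end to end along the genome held a median of 4 regions where they held any, and 322 of 9071 (3.55%) held 51 or more, with a highest count of 173.

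**Figure D1:**
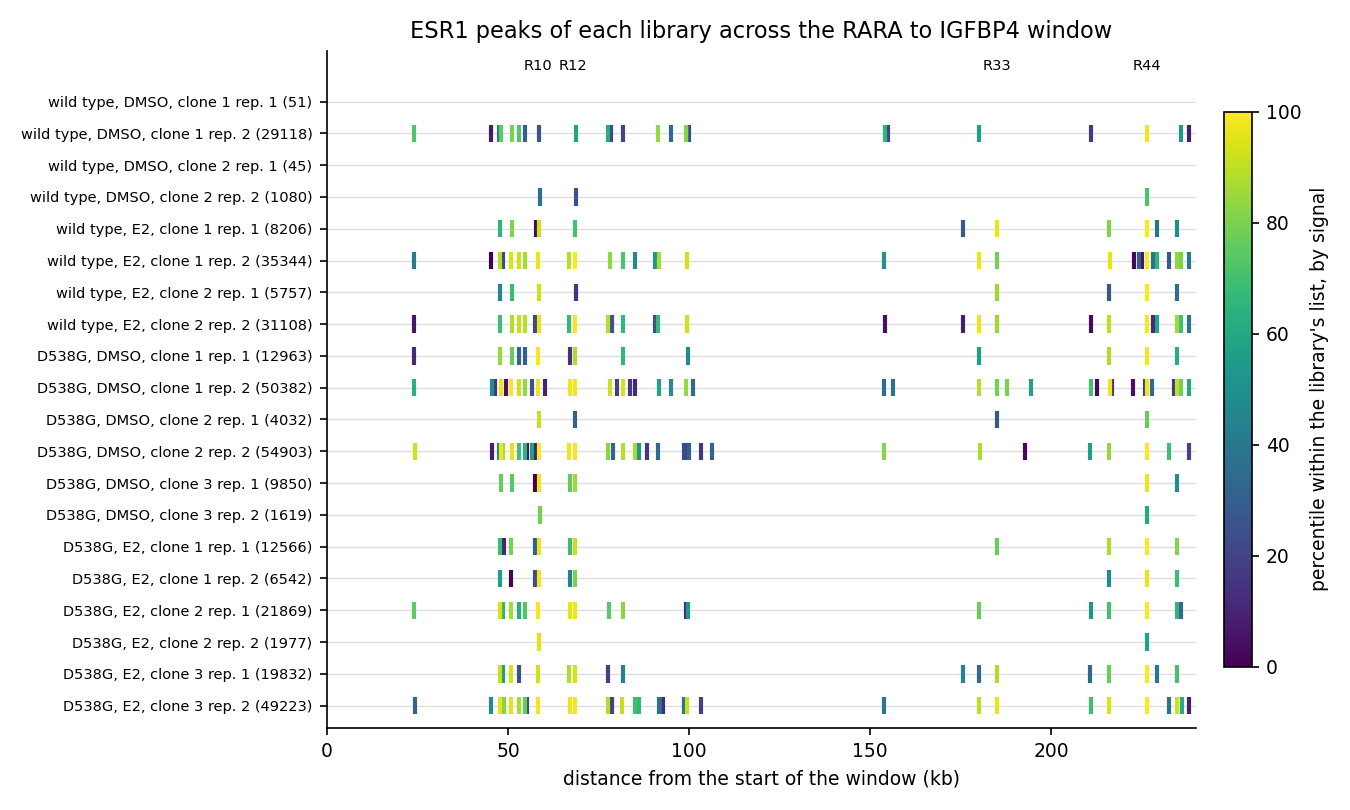
Peaks of the 20 libraries (rows, with the number of peaks of the whole list in parentheses) against distance from the start of the window in kb. Each tick is 1 peak, coloured by its percentile within its own list by signal value. The peaks of R10 and R44 form the most complete columns, with 18 libraries each, and a stretch of 46961 bp in the middle holds none.

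R44 and R10 were the most widely bound regions, each with a peak in 18 of 20 libraries, a breadth reached by 333 of all regions (0.356%). Both were bound in every library except the wild-type DMSO lists of 51 and 45 peaks. R44 lay at the IGFBP4 end (chr17:38645641-38647320) and R10 at the RARA end (chr17:38477094-38479542). R44 was among the 1000 strongest peaks of its list by signal value in all 18 libraries that had it, and R10 in 14 of 18. In the lists of 1080, 1619 and 1977 peaks the 1000 strongest are most of the list, so this count says little there. Signal values were compared only as a rank within a list, or as a percentile, the share of the list's peaks at that signal or lower.

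In the wild-type E2 lists the R44 peak ranked 23 of 8206 and 137 of 35344 in clone 1 and 2 of 5757 and 347 of 31108 in clone 2. It stood at a percentile of 98.9 or above in each of them. In the wild-type DMSO lists it ranked 513 of 29118 and 306 of 1080, and had no peak in the shorter lists. In the D538G DMSO lists its rank ran from 152 to 931 with a median of 437.5, and in the D538G E2 lists from 51 to 850 with a median of 114. The ranks of all groups overlapped. Its percentile was 99.6 ± 0.47 (SD, n = 4) in wild-type E2, 88.7 ± 15.9 (n = 6) in D538G DMSO and 91.9 ± 17.1 (n = 6) in D538G E2. The low values came from the short lists: 61.3 in the D538G DMSO list of 1619 peaks and 57.1 in the D538G E2 list of 1977 peaks.

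R10 ranked 589 and 1097 in the wild-type E2 lists of clone 1 and 470 and 984 in those of clone 2. In wild-type DMSO it ranked 21719 of 29118 and 681 of 1080, at percentiles of 25.4 and 37.0. The D538G DMSO ranks ran from 128 to 1244 with a median of 277.5, and the D538G E2 ranks from 90 to 1403 with a median of 338.5. All 16 peaks of the E2-treated or D538G lists lay at a percentile of 78.6 or above, so the wild-type DMSO peaks were the 2 lowest of the 18. Only 2 of 4 wild-type DMSO lists enter that statement, and their placement was not tested.

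**Figure D2:**
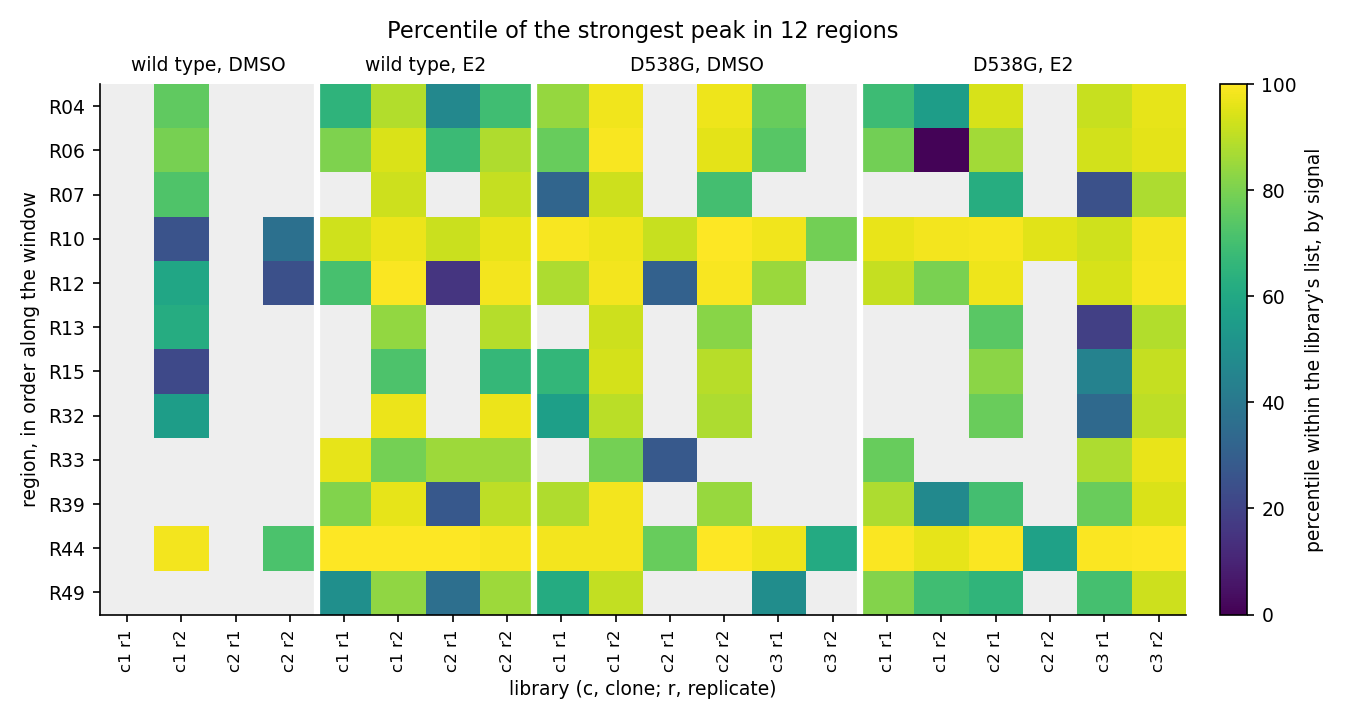
Percentile of the strongest peak of each library (columns, grouped by genotype and treatment) in the 12 most widely bound regions (rows, in order along the window). Grey cells have no peak. R10 and R44 are filled in 18 columns each, and R33, R39 and R49 are filled in all 4 wild-type E2 columns and in none of wild-type DMSO.

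The 12 most widely bound regions held 180 of the 297 peaks (60.6%). Beside R10, 6 of them lay at the RARA end. R12 (chr17:38486436-38489167), at 2732 bp the widest region of the window, was bound in 16 libraries: for the wild type 2 of 4 with DMSO and 4 of 4 with E2, for D538G 5 of 6 with either treatment. R06 (chr17:38470389-38471312) and R04 (chr17:38467255-38469056) were each bound in 14, with 1 and 4 (wild type, DMSO and E2) and 4 and 5 (D538G, DMSO and E2). R07 (chr17:38472624-38473661) and R15 (chr17:38501156-38502332) were bound in 9 (1, 2, 3 and 3), and R13 (chr17:38497348-38499036) in 8 (1, 2, 2 and 3).

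R06 was the strongest peak of the window in 1 list, D538G DMSO clone 1 replicate 2, where it ranked 519 of 50382. In the wild-type E2 lists it stood at percentiles of 80.7, 94.2, 68.2 and 88.2. The lowest D538G value was 1.10, in the E2 list of clone 1 replicate 2, where the R06 peak was among the weakest of 6542. R12 spread as widely, from 15.3 to 99.6 in wild-type E2 and from 30.9 to 98.9 in D538G DMSO. The group medians of R12 were 84.5 in wild-type E2, 87.7 in D538G DMSO and 93.9 in D538G E2. The 2 wild-type DMSO lists with an R12 peak had it at 24.5 and 59.3, below those medians and inside the range of wild-type E2.

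At the IGFBP4 end, R39 (chr17:38635701-38636495) and R49 (chr17:38654204-38655158) were bound in 12 libraries each, in the wild type 0 of 4 with DMSO and 4 of 4 with E2, in D538G 3 of 6 with DMSO and 5 of 6 with E2. R33 (chr17:38604782-38605364) was bound in 9 (0, 4, 2 and 3). R32 (chr17:38599533-38600600) was bound in 9 (1, 2, 3 and 3). The R33 peak stood at percentiles of 96.4 and 78.9 in the wild-type E2 lists of clone 1 and 85.4 and 85.5 in those of clone 2. R33 was also the narrowest of the 12, at 583 bp.

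Summits, the positions of highest pile-up, recurred closely between libraries in most of the 12 most widely bound regions, but not all (the plot of summit positions). The strongest R10 summits of 18 libraries fell within 73 bp, around chr17:38478745, and those of R33 in 9 libraries within 52 bp. R44 summits spread over 206 bp around a median of 38646424.5. The SD of the summit position was 18.2 bp for R10, 15.5 bp for R33 and 54.3 bp for R44, and the median over all regions bound in 9 or more libraries was also 54.3 bp. Above that median among the 12 lay R07 at 89.9 bp, R13 at 93.7 bp and R12 at 438 bp.

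Some regions held more than 1 summit place. When summits were grouped where neighbours lay within 500 bp, 4 regions of the window split. R12 had one place at 38486902 to 38486979, used in 11 libraries (0 wild-type DMSO, 2 wild-type E2, 4 D538G DMSO and 5 D538G E2), and another at 38488551 to 38488750, used in 16 (2, 4, 5 and 5). The D538G DMSO library of clone 1 replicate 2 had its strongest R12 summit at 38486950, in the first place, and the other 15 had theirs in the second. Within the second place, the wild-type DMSO summits lay lowest, at 38488559 and 38488551. R10 had a second, weaker place at 38477580 to 38477660 in 6 libraries (0, 2, 2 and 2) with a mean percentile of 14.6, against 88.1 for its main place. R04 had a second place at 38468594 to 38468832 in 6 libraries (0, 1, 1 and 4). No test was made of these places.

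**Figure D3:**
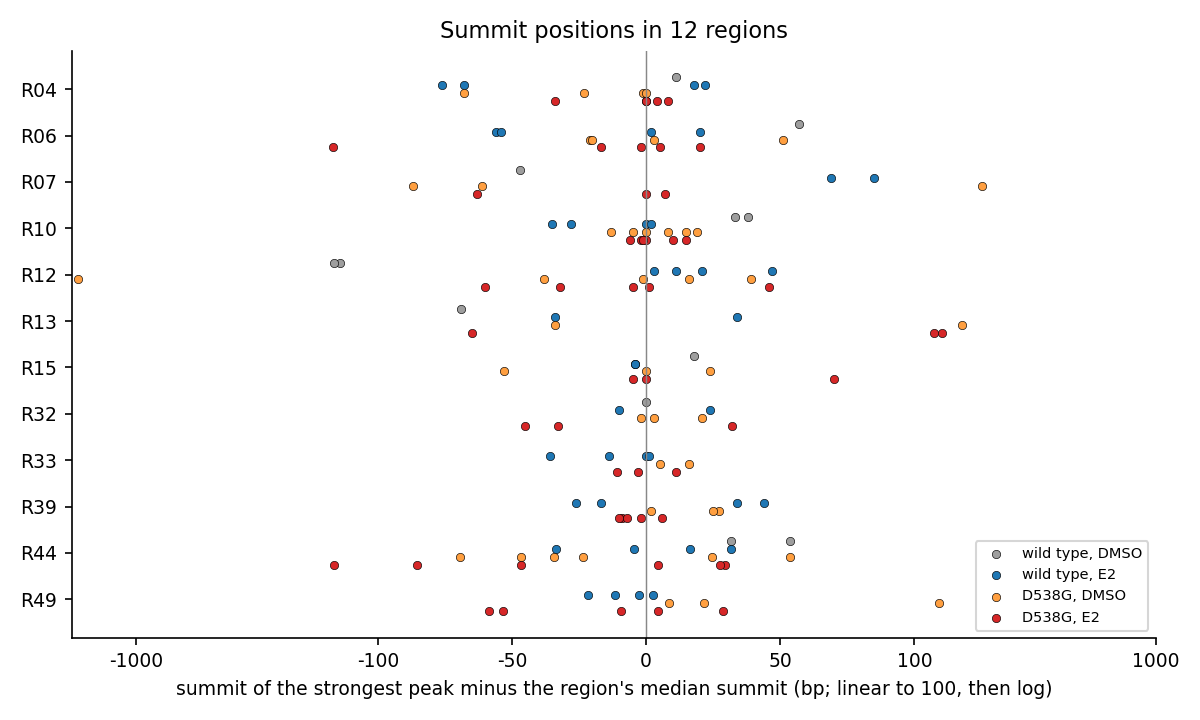
Summit of each library's strongest peak minus the region's median summit, in bp (linear to 100 bp, log beyond), for the 12 most widely bound regions, coloured by group. R10 and R33 summits lie within 73 bp and 52 bp, and 1 D538G DMSO library has its R12 summit at another place of that region.

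With E2, the wild-type receptor had peaks in more regions of the window. The wild-type DMSO lists bound 0, 20, 0 and 3 regions (clone 1 replicates 1 and 2, then clone 2) and the wild-type E2 lists 10, 28, 8 and 24. Between lists that share a clone and a replicate number, all 4 counts were higher with E2, by 11.8 ± 6.24 regions (SD, n = 4). The groups overlapped, because the DMSO list of clone 1 replicate 2 held 20. Without pairing, the difference of 11.8 had p = 0.171 (two-sided exact permutation test, Benjamini-Hochberg adjusted p = 0.5 over 5 comparisons of region counts). Without the DMSO list that stands apart the difference was 16.5 regions (p = 0.0857, exact permutation test, unadjusted), and the groups no longer overlapped. List length moved with the count: the median list held 565.5 peaks with DMSO and 19657 with E2, and the part of list length in the count was not tested. Per 1000 peaks of the list, the window held 0.909 ± 1.31 peaks with DMSO and 1.12 ± 0.285 with E2 (n = 4 each). The DMSO mean includes 0 from the lists of 51 and 45 peaks, whose same-numbered E2 lists held 1.34 and 1.39. In replicate 2 the value was not lower with DMSO: 0.859 against 0.849 in clone 1 and 2.78 against 0.900 in clone 2.

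Region by region, Fisher's exact test compared how many libraries had a peak, over all regions of the genome bound in at least 2 of the libraries compared. In wild-type cells 25 regions of the window entered, and 23 were bound in more E2 than DMSO libraries, with a median difference of 25 percentage points, the same as over all 29233 regions, of which 90.7% were higher with E2. R33, R39 and R49 passed an unadjusted p under 0.05 (4 of 4 against 0 of 4 libraries, Fisher's exact p = 0.0286, adjusted p = 0.306). That is 3 of 25 in the window, where 9.34% of all regions passed the same threshold. Without the DMSO list of clone 1 replicate 2, 5 of 23 regions passed the unadjusted threshold, at a share of 14.3% of all regions tested. After Benjamini-Hochberg adjustment 0 regions passed in the window and 0 in the genome, with or without that list. The p of R33, R39 and R49 with all lists is also the smallest p that 4 against 4 libraries allow. With 9.34% of regions at that p, no adjusted p could be lower than 0.306. The count of 0 after adjustment with all lists therefore does not show that no region changed. Without the DMSO list of clone 1 replicate 2, the libraries are fewer and 14.3% of regions passed unadjusted. No adjusted p under 0.05 was possible there either, so that count of 0 does not show it.

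In D538G cells E2 did not move the region count in one direction. The DMSO lists bound 13, 38, 4, 26, 6 and 2 regions (clones 1, 2 and 3, replicates 1 and 2 of each) and the E2 lists 8, 7, 16, 2, 15 and 26. With E2, 3 of 6 pairs were higher and 3 lower, by −2.5 ± 21.6 regions on average. The groups overlapped over nearly their whole range. The difference had p = 0.766 (two-sided exact permutation test, adjusted p = 0.766), and without the pair whose E2 list names a control it was −5.4 with p = 0.571 (exact permutation test). The direction turned to 2.13 without the DMSO list of clone 1 replicate 2, which held 38 regions. Of 26 regions tested, 8 were bound in more E2 libraries (30.8%), 9 in fewer (34.6%) and 9 in as many. Over all 44920 regions tested, 23.5% were higher and 32.6% lower. In the window 0 passed an unadjusted Fisher p under 0.05, against 0.0200% of all regions tested. Without the pair in doubt it was 0 of 26, against 0.293%. None passed after adjustment in the window or elsewhere, with or without that pair.

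Without hormone, the D538G lists bound 14.8 ± 14.3 regions (n = 6) and the wild-type lists 5.75 ± 9.60 (n = 4). Both groups held lists with 3 regions or fewer and lists with 20 or more. The difference of 9.08 regions had p = 0.319 (two-sided exact permutation test, adjusted p = 0.5), and 11.2 with p = 0.246 without the D538G pair in doubt (exact permutation test). It was 13.8 without the wild-type list that stands apart, and 4.45 without the DMSO list of D538G clone 1 replicate 2. Of 24 regions tested, 22 were bound in a larger share of D538G libraries and 2 in a smaller one, a split of 91.7% higher against 82.2% of all regions tested. None of the 24 passed an unadjusted Fisher p under 0.05, at a background of 3.57% (smallest p in the window 0.133), and without the pair in doubt it was 0 of 23 at a background of 4.91%. After adjustment 0 passed anywhere in either case.

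With E2, the D538G lists bound 12.3 ± 8.50 regions (n = 6) and the wild-type lists 17.5 ± 9.98 (n = 4). The difference of −5.17 regions had p = 0.4 (two-sided exact permutation test, adjusted p = 0.5). It was −5.9 without the pair in doubt (exact permutation p = 0.365), and in replicate number 1 alone it was 4 in the other direction. Of 27 regions tested, 1 was bound in a larger share of D538G libraries and 20 in a smaller one (74.1%, against 68.9% lower over all 35729 regions). Again 0 passed an unadjusted Fisher p under 0.05, at a background of 1.21%, and 0 of 27 at a background of 1.46% without the pair in doubt, and 0 passed after adjustment in either case. The E2 effect itself differed between genotypes by −14.2 regions, D538G minus wild type, with p = 0.281 (exact permutation of genotype over the pairs, two-sided, adjusted p = 0.5), and by −17.2 without the pair in doubt (exact permutation p = 0.230).

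**Figure D4:**
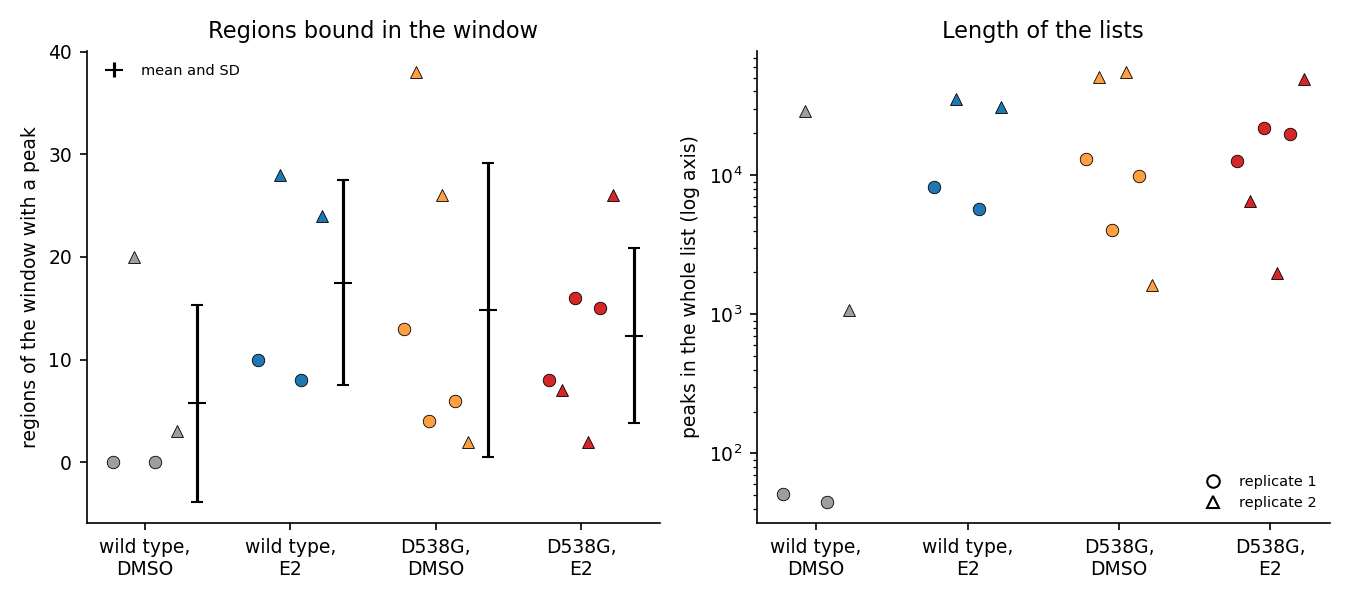
Left, regions of the window with a peak in each library, with the mean and SD of each group beside the points. Right, the number of peaks in the same library's whole list, on a log axis. The lists with the most regions in the window (38 and 28) are among the longest lists, and the 2 lists with 0 regions are the shortest.

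Pooled over libraries, the D538G DMSO group reached 44 regions, wild-type E2 30, D538G E2 28 and wild-type DMSO 20. These totals pool 6 D538G lists against 4 wild-type lists, and 1 list, D538G DMSO clone 1 replicate 2, held 38 of the 44. D538G DMSO and wild-type E2 had 25 in common, 56.8% of the former and 83.3% of the latter, where over all regions the shares were 40.9% and 82.8%. Without that list they had 22 in common, 78.6% of 28 and 73.3% of 30, against 46.3% and 66.1% over all regions. D538G E2 also shared 25 with wild-type E2, 89.3% of its own 28 and 83.3% of the 30, against 52.7% and 80.3% over all regions. Of the regions at each end, the wild-type E2 lists bound 4 and 6, 14 and 14, 4 and 4, and 12 and 12 at the RARA and the IGFBP4 end, so in none of them did the RARA end hold more. In the D538G DMSO lists the RARA end held more in 4 of 6 (9 and 4, 21 and 17, 18 and 8, 4 and 2) and as many in the remaining 2. Both wild-type DMSO lists with peaks also held more at the RARA end (13 and 7, 2 and 1). Of the D538G E2 lists, 3 held more there (4 and 3, 10 and 6, 16 and 10), 2 held as many and 1 held fewer (7 and 8). The ends were divided at the peak-free stretch after the values were seen, and this split was not tested.

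The strongest peak of the window stood at a percentile of 99.6 ± 0.47 in wild-type E2 (n = 4), 98.7 ± 1.64 in D538G E2 (n = 6) and 94.3 ± 8.24 in D538G DMSO (n = 6). The D538G groups differed by 4.37 percentage points with p = 0.232 (two-sided exact permutation test, adjusted p = 0.395 over 2 comparisons), and both E2 groups by −0.877 with p = 0.395 (adjusted p = 0.395). Without the pair in doubt these differences were 3.72 (p = 0.571) and −1.03 (p = 0.349, both exact permutation tests). With 1 list left out, the difference between the D538G groups ran from 1.22 to 5.46. It was lowest without the D538G DMSO list of clone 3 replicate 2, which has 1619 peaks and its strongest window peak at 78.6. Among the wild-type lists with a peak, R44 held this place in all 6. Among the D538G DMSO lists it was R10 in 5 and R06 in 1, and among the D538G E2 lists R44 in 4 and R10 in 2.

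That exchange was noticed in the values and then measured, so it is a description of these lists with no test. In each list with both peaks, the rank of R44 was divided by that of R10, and negative log2 values mean that R44 was the stronger. In wild-type E2 the values were −4.68 and −3.00 (clone 1) and −7.88 and −1.50 (clone 2). The 2 wild-type DMSO lists gave −5.40 and −1.15. The D538G DMSO values ran from −0.61 to 1.48 with a median of 0.50, all above every wild-type value. The D538G E2 values ran from −3.93 to 3.24 with a median of −1.74 and overlapped both. The E2 list whose peak names hold "Ctl" (clone 2 replicate 1) gave −1.09, with R44 the stronger and close to the highest wild-type value of −1.15. Its DMSO partner gave 1.48, the highest D538G DMSO value. The mean was 0.50 ± 0.74 (n = 6) in D538G DMSO, −4.27 ± 2.73 (n = 4) in wild-type E2 and −1.13 ± 2.87 (n = 6) in D538G E2.

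The D538G DMSO and wild-type E2 values did not overlap, and such a separation is common in these lists. Among the 779 regions bound in all 10 of those libraries there are 303031 pairs, and in 38508 of them (12.7%) the same ratio did not overlap between both groups. R44 lost rank in this way against 273 of the other 778 regions (35.1%), and R10 gained rank over 50 of them (6.43%). Both of these shares count only that direction of change. The 12.7% counts either direction, so it is not on the same scale. With peaks ranked by −log10 p in place of signal, R44 was the stronger in all 6 wild-type lists, in 0 of 6 D538G DMSO lists and in 2 of 6 D538G E2 lists.

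**Figure D5:**
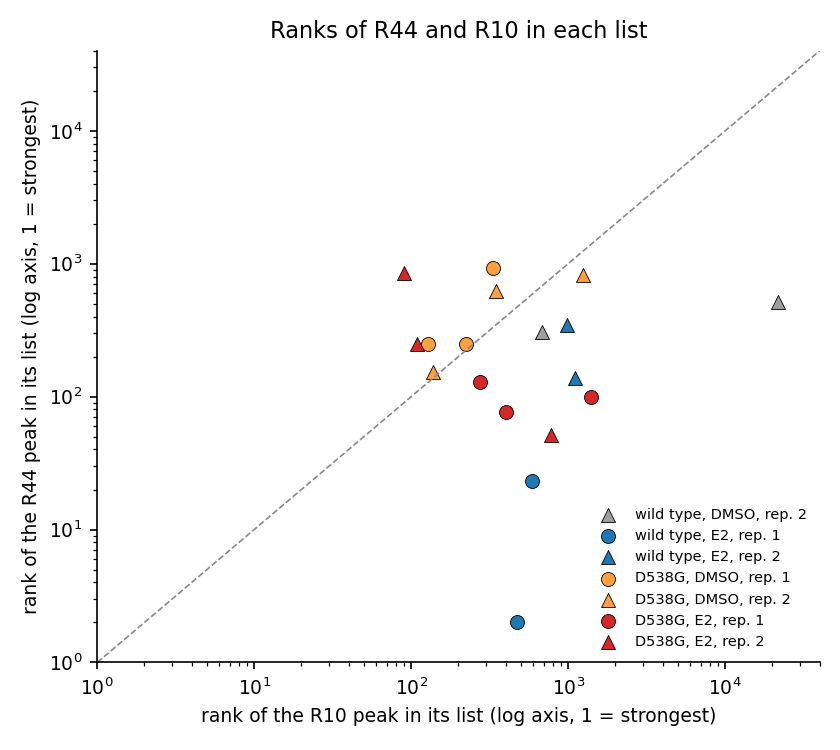
Rank of the R44 peak against the rank of the R10 peak in each list that holds both, on log axes where 1 is the strongest peak of a list, coloured by group and shaped by replicate number. Below the dashed line R44 is the stronger: all 6 wild-type lists lie there, and 5 of 6 D538G DMSO lists lie above it.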

How the data were processed

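The data were 20 narrowPeak lists of 1 library each, with peaks called per library. Per the submitters' processing notes, the build was hg19 and Bowtie and MACS2 were used, with no version, threshold or role given in the sources used here. In the deposited lists, the signal of each peak is the authors' own value, with no statement of its reference. The authors also deposited a −log10 p and a −log10 q per peak and a summit offset. Read depth is unknown, so no interval or floor can be given, and the absence of a peak means only that none passed the authors' threshold. In all, 5 peaks off chromosomes 1 to 22, X and Y were set aside.

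Peaks overlapping by at least 1 bp were merged (93612 regions, also by bedtools 2.31.1), with Python 3.11.15, pandas 2.3.3 and scipy 1.17.1. Region counts and percentiles were compared with exact two-sided permutation tests, and presence with Fisher's exact test over all regions bound in at least 2 libraries, adjusted by Benjamini-Hochberg. The permutation tests and the adjustment were checked on made-up values with known answers. Fisher's exact test was run on simulated lists with planted changes, and no level of recovery was required of it. Named regions were up to 12 of the window, taken by the number of libraries with a peak and then by mean percentile, plus any with an unadjusted Fisher p under 0.05. The window, its genes and these lists were chosen with earlier results of these data known.

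E2 and DMSO lists of one clone share replicate numbers, which were used to form differences but are not shown to pair the samples. Alternatives were leaving out each list or pair, a replicate block, the 1000 strongest peaks, a −log10 q of at least 20, peak and base counts, summits within 500 bp, clone means, each replicate number alone, lists of at least 1000 peaks, and other ranks.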

Additional observations from a re-analysis of the deposited data

Results flagged for a closer look

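In a search of 18 combinations of group and measure, a sample was called far from its group by Dixon's test at the 95% level in 3. That level means about 1 in 20 groups by chance for independent, normally distributed values. These measures include small tied counts and several come from the same lists, so the 3 cannot be set against that rate. Among the wild-type DMSO lists, clone 1 replicate 2 bound 20 regions of the window where the others bound 0, 0 and 3. Among the D538G DMSO lists, clone 1 replicate 2 had 5 peaks of the window among its 1000 strongest, where the other lists had 2 or 3. Among the D538G E2 lists, clone 2 replicate 2 had its strongest peak of the window at a percentile of 95.5, where the others lay at 98.3 or above. It is the shortest list of its group, at 1977 peaks.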

How the results depend on the processing

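Over 11 results, 196 alternatives were computed, and 187 were labelled the same as the main setting. No permutation result passed in the main setting. With clone means or 1 replicate number the groups are too small for a p under 0.05, so those alternatives could not change a call. The 187 is therefore no measure of how firm the results are. For the permutation tests, this label meant an unchanged direction and an unchanged call by the adjusted p. For the counts of regions past an unadjusted Fisher p, a small change in number was still labelled the same. So labelled were a wild-type count of 2 at a −log10 q of at least 20, and 4 without the E2 list of clone 2 replicate 1, where the main count was 3. The difference in E2 effect between genotypes (−14.2 regions) was −2.33 with the 1000 strongest peaks, where shorter lists enter whole. Its exact permutation p was 0.0333 unadjusted, and the call after adjustment did not change. The change with E2 in D538G cells (−2.5 regions) was 0 at a −log10 q of at least 20 and 5.33 in replicate number 1, and ran from −5.23 to 2.13 when 1 list was left out, the latter without the DMSO list of clone 1 replicate 2. D538G against wild type with E2 (−5.17 regions) was 4 in replicate number 1 and ran from −8.33 to −1.67 with 1 list left out. The strongest percentile of the same comparison (−0.877) was 2.31 when the median percentile of the window's peaks was used. The count of regions past an unadjusted Fisher p between wild-type E2 and DMSO was 0 with the 1000 strongest peaks of each list (all peaks of a shorter list), and 3 to 5 with 1 list left out, 5 without the DMSO list of clone 1 replicate 2. Between D538G and wild type with E2 it was 0 to 1, reaching 1 without wild-type clone 2 replicate 1 or D538G clone 3 replicate 1. E2 and DMSO lists of a clone share a replicate number, and nothing in the labels says more of the pairing. The deviations of same-numbered lists from their group means correlated at 0.798 over 4 wild-type and −0.772 over 6 D538G list pairs. A replicate block on that number gave p = 0.125 for E2 in wild-type cells, the smallest that 4 pairs allow, and p = 0.844 in D538G cells (exact sign-flip permutation), and changed no call. Read depth is unknown, and the part of list length in the counts was not tested.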

Other observations

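Outside the window, the regions whose pattern was most like that of R44 were sought among the 8815 regions bound in 9 or more libraries, by Spearman correlation of the within-list percentile over the 20 libraries, with 0 where a library had no peak. The median over these regions was 0.506. All of them are read from the same 20 lists, which differ in length. The 3 closest were chr2:20783183-20785024 at 0.953, chr1:54047531-54048704 at 0.941 and chr2:15782041-15783667 at 0.940, bound in 15, 16 and 17 libraries. Within the window, R06 was the most like R44 among the other 11 named regions, at 0.777, and R07 and R10 were the least, at 0.482 and 0.484. These are descriptions over libraries that share clones and carry no test.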
